A study of Mus musculus with 4 samples.

Results

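Oral ampicillin was set against oral phosphate-buffered saline (PBS) in the stool of mice at day 4 of dosing. The samples were chosen from the sheets of the sequencing runs as day 4 stool of mice dosed by mouth with ampicillin or with PBS. This gave 5 oral ampicillin mice and 5 oral PBS mice, out of 198 fecal samples in all, of which 91 were of day 4. All were wild-type C57BL6/J mice of 8 to 12 weeks kept under SPF conditions on standard chow, and both groups carried the same gavage and the same 100 µl of PBS as vehicle. The ampicillin mice received 2.5 mg of the drug in each dose, with 2 doses a day for 3 days and a last one on day 4, and all were euthanized 4 hours after it. The labels do not state the sex of the mice or how they were caged.

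Ampicillin is a beta-lactam: it binds the penicillin-binding proteins and stops the cross-linking of peptidoglycan, the polymer of the bacterial cell wall. Given by mouth it reaches the gut lumen directly, where the mouse community is mostly made of strict anaerobes. Muribaculaceae, a family of fermenters of complex carbohydrates, and Prevotella are common in it, next to Clostridia such as Lachnospiraceae, which produce short-chain fatty acids. Borkfalkia, a genus of the Christensenellales, was first described from human stool in which it took over during ceftriaxone, another beta-lactam. Anaeroplasmataceae belong to the bacteria that make no cell wall. Burkholderia is a genus of soil and water bacteria, many of which carry beta-lactamases, and it is also met as DNA in reagents. Several names in the table, such as CAG-552, CAG-314 and UBA7173, are placeholders for lineages known from genome sequences, and nothing is said here of what those bacteria do.

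Bacteria were profiled through the V4 stretch of their 16S rRNA gene, after 30 to 35 cycles of PCR and MiSeq sequencing. A PureLink and a PowerSoil kit are named for the DNA, and the labels do not say which was used for which sample. Values are the percent of a library's reads, so they are shares: a lower share and fewer cells of a bacterium cannot be told apart, and the amount of bacteria in the stool was not measured. The ampicillin libraries held 6234 to 28586 reads and the PBS libraries 18152 to 64482, as recovered from the deposited values. Ampicillin replicates 1, 2 and 3 and all PBS replicates were in run ok122, while ampicillin replicates 4 and 5 were in run SB1, which held no oral PBS library. At day 4 the PBS stool was of the kind usual for mice, led by Bacteroidota with 85.4% ± 11.0 of reads (SD, n = 5).

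With all genera counted, every ampicillin mouse lay at a Bray-Curtis distance of 0.908 or more from every PBS mouse, on a scale where 1 means no shared genus, and the 5 mice also differed from each other. In replicate 1 Borkfalkia held 85.2% of reads, followed by Pelethenecus, a genus of the Anaeroplasmataceae, with 3.50%. In replicate 2 Borkfalkia held 55.6% and unclassified CAG-552, another member of the Christensenellales, held 34.5%. Replicate 4, from the other run, was nearly the same, with 56.4% Borkfalkia and 36.8% unclassified CAG-552. Pelethenecus was the third genus in both, with 4.84% in replicate 2 and 4.66% in replicate 4. The Bray-Curtis distance between these 2 mice was 0.0370, the smallest of the 10 pairs of ampicillin mice, whose median was 0.927. Their reads, counted over the taxa as deposited, still differed beyond sampling noise (chi-square of 13.6 per degree of freedom). Some of those taxa carry species names that were given in 1 run only. A difference between the 2 mice and one between the runs cannot be told apart by this value.

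The other 2 ampicillin mice were dominated by Burkholderia. It held 89.0% of reads in replicate 3 (95% exact binomial interval 88.2% to 89.8%) and 96.6% in replicate 5 (96.3% to 96.8%). The next genera of replicate 3 were Borkfalkia with 1.67% and Pelethenecus with 1.33%. Those of replicate 5 were Prevotella with 0.775% and unclassified Lachnospiraceae with 0.419%, and Borkfalkia and unclassified CAG-552 had no read there, which allows a share of up to 0.0128%. One Burkholderia mouse was sequenced in each run. These intervals and limits take in counting error alone, because reads made by PCR do not each stand for a separate molecule.

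**Figure D1:**
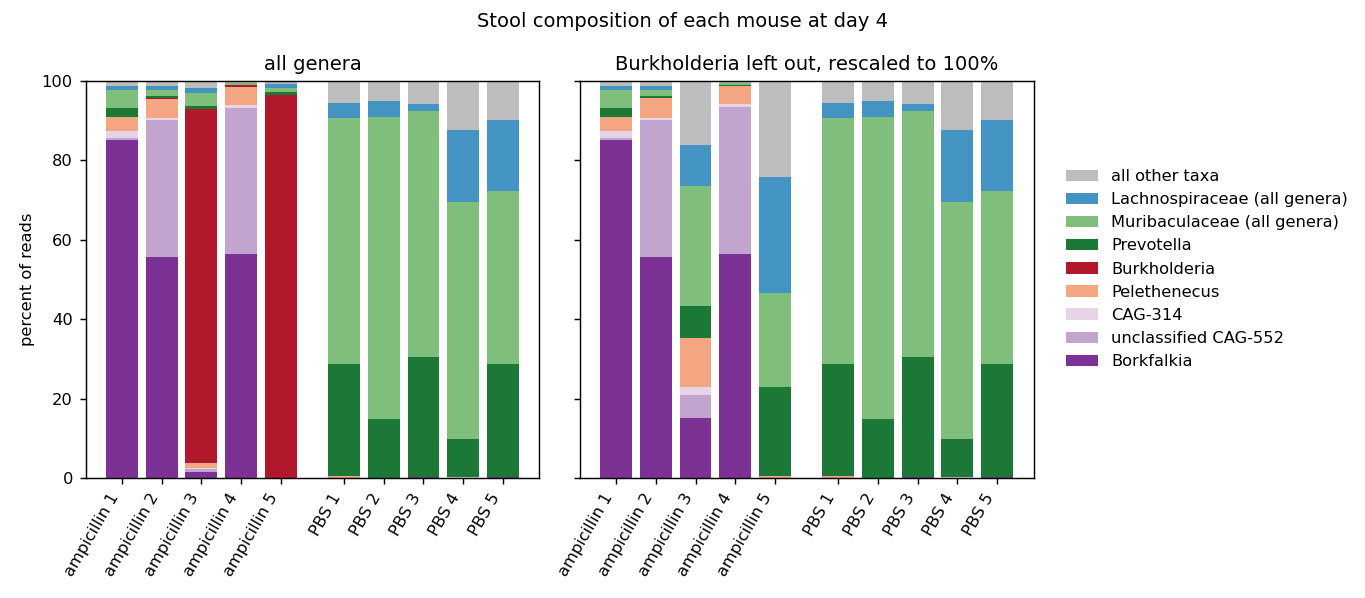
Stacked bars give the percent of reads (vertical axis, 0 to 100%) of 6 genera and 2 families in each mouse at day 4, with the 5 oral ampicillin mice left of the 5 oral PBS mice. The left panel shows all genera and the right panel the same libraries rescaled without Burkholderia, where ampicillin replicates 3 and 5 rest on 685 and 803 reads.

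Leaving out Burkholderia and scaling each library to 100% again changed little in replicates 1, 2 and 4, where it held 0%, 0.171% and 0.323% of reads. In replicates 3 and 5 it left 685 and 803 reads, and the 2 mice then differed from each other. The rest of replicate 3 was a mixture. Borkfalkia led it with 15.2% (12.6% to 18.1%), Pelethenecus followed with 12.1% (9.77% to 14.8%), and then came the Bacteroidota genera UBA7173 with 8.91%, Prevotella with 8.18% and Muribaculum with 7.59%. Unclassified CAG-552 held 5.69% and CAG-314 2.19% of that remainder.

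The rest of replicate 5 was led by Prevotella with 22.5% (19.7% to 25.6%) and unclassified Lachnospiraceae with 12.2% (10.02% to 14.7%). UBA7173 with 5.85%, COE1 of the Lachnospiraceae with 5.60% and Odoribacter_865974, an anaerobe of the Marinifilaceae, with 5.48% came next. Borkfalkia, unclassified CAG-552 and CAG-314 had no read among these 803, which allows up to 0.374% for each. The 22.5% of Prevotella lay within the PBS range of 9.54% to 30.3%. Part of the Prevotella reads of the ampicillin mice of run SB1 carried the species name sp004792655, with 0.136% of all reads in replicate 4 and 0.462% in replicate 5. The others carried sp902776665, with 0.0765% and 0.312%. The first name was in all 12 libraries of that run and in 0 of 186 of run ok122, so species were not compared between runs.

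The 10 most abundant genera of the PBS mice were picked from these same mice, so they were chosen for being high there. All 10 were below the PBS range in every ampicillin mouse when all genera were counted. Together they held 0.544% to 7.38% of reads with ampicillin and 80.2% to 92.8% with PBS. Without Burkholderia they held 40.3% of the rest in replicate 3 and 58.3% in replicate 5, against 0.546% to 7.38% in the other 3 ampicillin mice. Of the 10 genera, 7 were then below the PBS range in replicate 3, 2 were within it and UBA7173 was above it. In replicate 5 there were 5 below and 5 within. Among the 94 tested genera other than Burkholderia, 38 to 43 were below the PBS range in each ampicillin mouse with all genera counted. Without Burkholderia it was 35 in replicate 3 and 27 in replicate 5. Counted by distance, replicate 5 lay 0.969 to 0.971 from the PBS mice with all genera and 0.3854 to 0.5676 without Burkholderia. Replicate 3 lay 0.943 to 0.949 and 0.591 to 0.667 from them, and the other 3 ampicillin mice 0.908 to 0.992 either way. PBS mice lay 0.108 to 0.382 from each other.

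Across the 95 genera tested, 6 were higher with oral ampicillin (6.32%) and 47 were lower (49.5%) in limma at an adjusted p of 0.05, together 53 (55.8%). On the centred log ratio scale, which sets each genus against the mean log share of all tested genera, the split was 13 higher and 13 lower. The median log2 change over all tested genera was -1.86 on the main scale, log2(percent + 0.01), and -0.01 on the centred scale. Without Burkholderia 5 of 94 genera were higher (5.32%) and 36 lower (38.3%), together 41 (43.6%). These were the other 5 of the 6 higher genera and 36 of the 47 lower ones. Some of the 36, such as Schaedlerella, Ventrimonas and Acetitomaculum, had no read in any ampicillin mouse. A share of 0 stays 0 on rescaling. For a genus with no read in the mice dominated by Burkholderia, a kept call is therefore no check on those mice. Every ampicillin mouse was below every PBS mouse for 32 of the 95 genera (33.7%) and above every PBS mouse for 0 (0%). Without Burkholderia every ampicillin mouse was below for 20 of 94 (21.3%), a count with the same limit for genera with no read in the Burkholderia mice.

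The 6 genera that rose belonged to 6 families. Borkfalkia held 85.2%, 55.6%, 1.67%, 56.4% and 0% in ampicillin replicates 1 to 5, against 0.122%, 0%, 0.183%, 0.144% and 0.231% in the PBS mice. It was high in 3 ampicillin mice, intermediate in replicate 3 and not detected in replicate 5, so the groups overlapped. The log2 change was 5.76 ± 1.67 (SE; limma adjusted p = 0.00299) and 6.40 ± 1.69 without Burkholderia (adjusted p = 0.00189).

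Unclassified CAG-552 held 0.522%, 34.5%, 0.626%, 36.8% and 0% with ampicillin, against 0%, 0%, 0.0224%, 0.0202% and 0.0780% with PBS. It was a main genus in replicates 2 and 4 only, although replicate 1 had the highest Borkfalkia. The log2 change was 5.78 ± 1.25 (SE; limma adjusted p = 0.000110). CAG-314, of the family of the same name, held 1.70%, 0.539%, 0.241%, 0.706% and 0% with ampicillin, and 0.0357% in 1 PBS mouse with no read in the other 4. It was above every PBS mouse in 4 of 5 ampicillin mice (log2 change 4.36 ± 1.11, limma adjusted p = 0.000860).

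Pelethenecus held 3.50%, 4.84%, 1.33%, 4.66% and 0.0171% with ampicillin, against 0.459%, 0%, 0.0224%, 0.137% and 0.0572% with PBS. The share in replicate 5 was 4 reads. The log2 change was 4.18 ± 1.07 (SE; limma adjusted p = 0.000891). Without Burkholderia its shares were 3.50%, 4.85%, 12.1%, 4.67% and 0.498%, all above the PBS mice, and it was the 1 genus of 94 (1.06%) with no overlap in that direction, by a margin that rests on those 4 reads. The log2 change was then 5.66 ± 1.11 (adjusted p = 6.03e-05). When the change of each mouse since day 0 was tested in place of the day 4 level, Pelethenecus was not called (log2 2.96, adjusted p = 0.117).

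Burkholderia held 0%, 0.171%, 89.0%, 0.323% and 96.6% with ampicillin and was at 0% in 4 PBS mice and 0.00775% in the other. The log2 change was 6.95 ± 1.28 (SE; limma adjusted p = 2.36e-05), with 2 mice high, 3 at 0.323% or less, and overlap between the groups. Over all 91 day 4 libraries 6 held more than 5% of Burkholderia, while the highest of the 16 PBS libraries of any route was 0.0304%. Of the mice dosed with ampicillin into the peritoneum, 1 of 2 held 8.49%, and the 4 oral mice given the mix of 4 antibiotics, ampicillin included, held 0.0903% to 96.0%. The 5 mice given ampicillin into a vein held at most 0.0773%. With the mix it was at most 3.59% in 6 mice dosed into a vein and 0.00953% in 3 dosed into the peritoneum. Before dosing, the mouse of replicate 3 held 0.440% in a library of 455 reads, and the mouse of replicate 5 held no read of 324. The other 7 genera of the list of known reagent, skin and food bacteria that the table holds had no read in 4 ampicillin mice and all PBS mice and 0.00856% in replicate 5. Whether the Burkholderia reads came from the gut or from the handling of the samples was not tested.

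Bifidobacterium_388775, a genus of saccharolytic Gram-positive anaerobes, was the smallest rise. It held 0.0154%, 0.119%, 0.128%, 0% and 0.0984% with ampicillin, against 0.00443%, 0%, 0.0157%, 0% and 0.0130% with PBS (log2 change 1.83 ± 0.65, limma adjusted p = 0.0132). Without Burkholderia it reached 1.17% in replicate 3 and 2.86% in replicate 5, from 8 and 23 reads. This call was lost without ampicillin replicate 2 (limma adjusted p = 0.0508) or replicate 3 (0.0547), with a pseudocount of 0.001 (0.0536) and with only both groups in the fit (0.0523). Without Burkholderia it was lost when libraries with fewer than 1000 remaining reads were dropped (log2 1.06, adjusted p = 0.302).

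**Figure D2:**
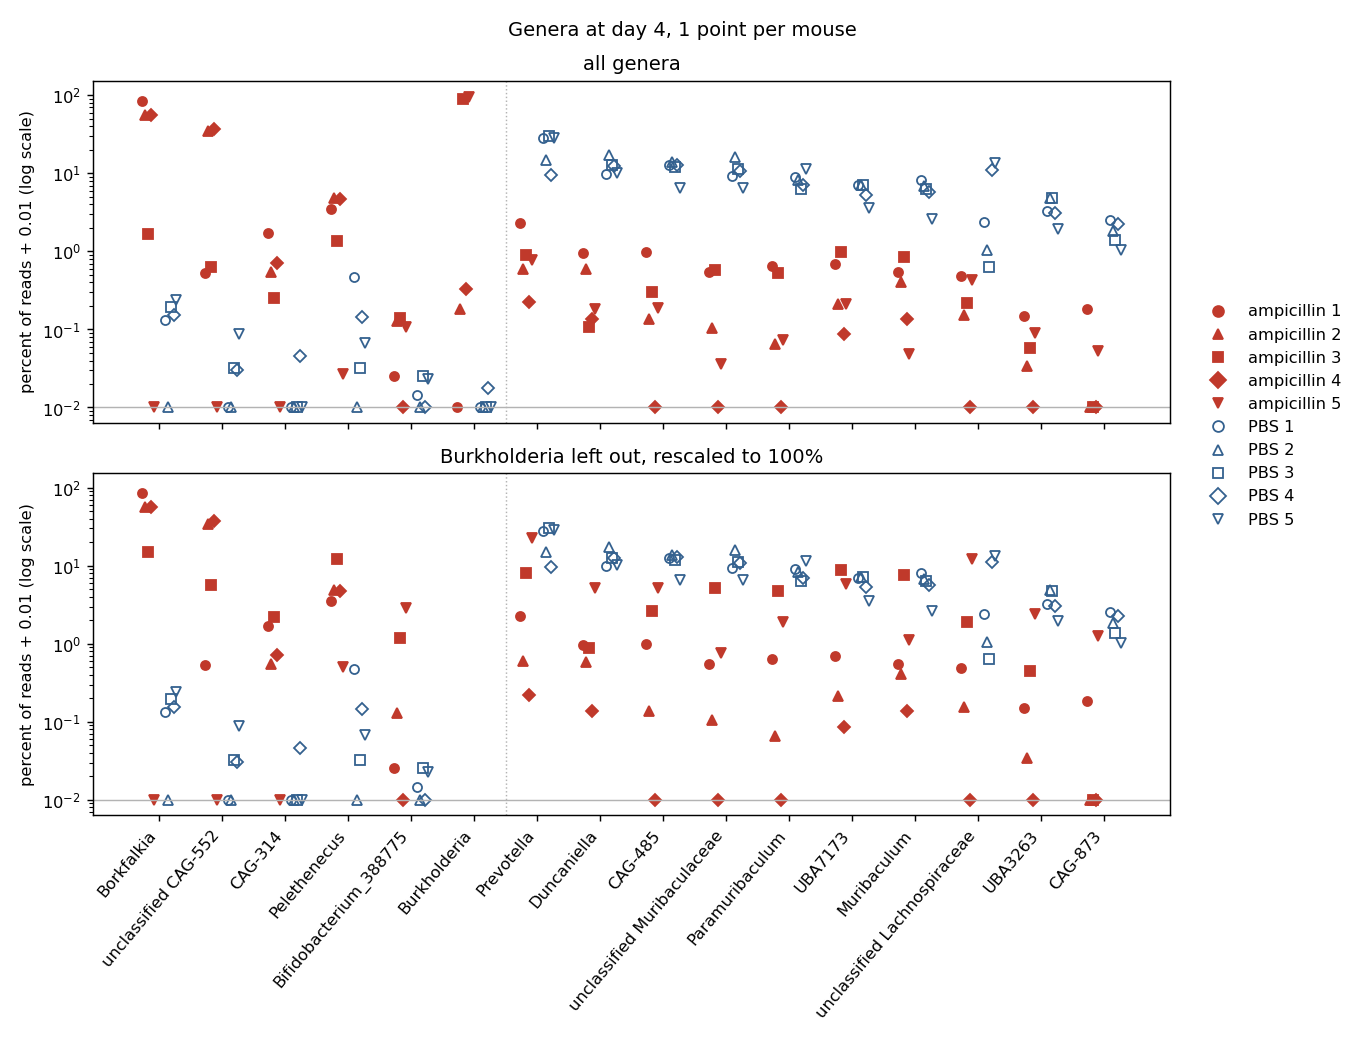
Each point is the percent of reads plus 0.01 (log scale) of a genus in 1 mouse at day 4, with oral ampicillin (filled) left of oral PBS (open) and 1 symbol shape for each replicate. The 6 genera left of the dotted line were higher with ampicillin. The 10 right of it, picked as the most abundant of these PBS mice, are lower in every ampicillin mouse in the upper panel. In the lower panel, without Burkholderia, the square and the downward triangle (replicates 3 and 5) move up into or near the PBS range for several of these 10.

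The 10 genera picked as the most abundant of the PBS mice were all called lower, and 7 of them without Burkholderia. Prevotella held 2.27%, 0.591%, 0.898%, 0.213% and 0.775% with ampicillin, against 28.2%, 15.0%, 30.3%, 9.54% and 28.3% with PBS (log2 change -4.79 ± 1.32 SE, limma adjusted p = 0.00200). The groups did not overlap. Without Burkholderia the change was -3.18 ± 1.34 (adjusted p = 0.0457), with overlap through replicate 5. On the centred log ratio scale Prevotella was not called (-2.94, adjusted p = 0.0675).

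All 8 genera of the Muribaculaceae fell (8 of 8 tested, beside 49.5% of all genera), with a median log2 change of -6.12. All 8 are among the 10 genera picked above for being high in these same PBS mice. The family is therefore not a result separate from those 10. In each of the 8 every ampicillin mouse was below every PBS mouse, beside 33.7% of all genera. Without Burkholderia this held for 4 of the 8, beside 21.3% of all genera. The family held 4.64%, 1.48%, 3.32%, 0.332% and 0.809% of reads with ampicillin, against 61.8%, 76.0%, 61.9%, 59.6% and 43.8% with PBS. Unclassified Muribaculaceae had the largest fall, with a mean of 0.243% ± 0.280 with ampicillin and 10.8% ± 3.47 with PBS (SD, n = 5 each). Its log2 change was -6.65 ± 1.35 (limma adjusted p = 7.89e-05). CAG-485 had a mean of 0.316% ± 0.389 with ampicillin and 11.6% ± 2.89 with PBS (log2 -6.22 ± 1.499), and Paramuribaculum 0.254% ± 0.297 and 8.41% ± 1.98 (log2 -6.22 ± 1.21).

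Duncaniella, a cultured member of the family, had a mean of 0.384% ± 0.368 with ampicillin and 12.5% ± 3.01 with PBS (log2 -5.49 ± 1.51). UBA3263 changed by -6.13 ± 1.28 and CAG-873 by -6.11 ± 1.31, and CAG-873 had no read in 3 ampicillin mice. Muribaculum and UBA7173 had the smallest changes of the family, -4.40 ± 1.38 and -4.25 ± 1.41. These 2 were not called without Burkholderia (-2.86, adjusted p = 0.0802, and -2.66, adjusted p = 0.125), nor in run ok122 alone (adjusted p = 0.0611 and 0.0658). The other 6 were lower in both. Without Burkholderia the Muribaculaceae held 30.2% of the rest in replicate 3 and 23.5% in replicate 5.

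Of 8 other genera of the Bacteroidales tested, 4 fell and 0 rose, a share close to the 49.5% of all genera, with a median of -2.85 beside -1.86 for all. Without Burkholderia 3 of the 8 were lower, beside 38.3% of all genera. Beside Prevotella these were Alistipes_A_871400, a bile-resistant anaerobe of the Rikenellaceae, Odoribacter_865974 and unclassified Rikenellaceae. Alistipes_A_871400 had a mean of 0.0330% ± 0.0327 with ampicillin and 1.02% ± 0.319 with PBS (log2 -5.03 ± 1.18). Odoribacter_865974 had 0.0524% ± 0.0786 and 0.450% ± 0.117 (log2 -3.75 ± 1.11, limma adjusted p = 0.00350), and was not called without Burkholderia (-2.20, adjusted p = 0.156). Bacteroides_H, with a mean of 0.160% with ampicillin and 0.553% with PBS, did not pass the test (adjusted p = 0.207).

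Of the 27 Lachnospiraceae genera tested, 13 fell and 0 rose, a share near that of all genera, with a median of -1.90 beside -1.86 for all. The family held 0.860%, 0.885%, 1.14%, 0.0255% and 1.002% of reads with ampicillin, against 3.96%, 3.92%, 1.73%, 18.1% and 17.7% with PBS. Unclassified Lachnospiraceae changed by -4.33 ± 1.37 (limma adjusted p = 0.00630), with values of 0.627% to 13.4% among the PBS mice. It was not called without Burkholderia (-2.74, adjusted p = 0.125). COE1, with a mean of 0.169% ± 0.115 with ampicillin and 0.480% ± 0.279 with PBS, did not pass the test (adjusted p = 0.117).

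Of 14 genera of Oscillospiraceae, Ruminococcaceae, Acutalibacteraceae and Butyricicoccaceae tested, 11 fell and 0 rose, beside 49.5% of all genera lower, with a median of -2.57 beside -1.86 for all. Together they held 0.1996%, 0.322%, 0.0802%, 0.0255% and 0.0257% of reads with ampicillin, against 1.47%, 1.97%, 1.499%, 6.95% and 4.72% with PBS. Without Burkholderia 10 of the 14 were lower, beside 38.3% of all genera. Of these 10, all but Dysosmobacter (mean 0.0393% with all genera and 0.136% without Burkholderia) kept nearly the same ampicillin mean. They had no read in replicates 3 and 5, where rescaling could not change them, so this count is no check on those 2 mice. The 2 Burkholderia mice held 0.730% and 0.747% of the rest, below every PBS mouse, but these are shares of only 685 and 803 reads. Unclassified Oscillospiraceae_88309 had no read in 4 ampicillin mice and 0.0420% in replicate 2, against 0.198% to 1.93% with PBS. Its log2 change was -5.33 with and without Burkholderia (limma adjusted p = 0.000104 and 0.000417). A share of 0 stays 0 on rescaling, so leaving out Burkholderia could not change this genus in replicates 3 and 5. No read among the rest allows up to 0.438% in replicate 3 and 0.374% in replicate 5, above the lowest PBS share.

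Facultative anaerobes and mucin degraders, which bloom under some antibiotics, did not pass the test. Escherichia_710834, a facultative anaerobe and the 1 genus of Enterobacteriaceae tested, had a mean of 0.126% with ampicillin and 0.0838% with PBS (adjusted p = 0.694). Without Burkholderia the Enterobacteriaceae held 3.36% of the 685 reads of replicate 3 and none of the 803 of replicate 5. The 4 genera of Lactobacillaceae and Streptococcaceae tested were not called, and together these families held at most 0.0870% of reads in an ampicillin mouse, against 0.0650% to 0.165% with PBS. Akkermansia, a mucin degrader, had 0.0154%, 0.0595%, 0.225%, 0% and 0% with ampicillin and 0% to 0.0992% with PBS (adjusted p = 0.871). Of 3 genera of Desulfovibrionaceae, which reduce sulfate, 1 fell, beside 49.5% of all genera. This was Desulfovibrio_R_446353 (log2 -2.29, limma adjusted p = 0.0126), which was not called without Burkholderia (-1.70, adjusted p = 0.125). Of 2 genera of Bifidobacteriaceae and Eggerthellaceae 1 rose, the Bifidobacterium described above, beside 6.32% of all genera. No genus of the table belonged to the list of food or host organelles.

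**Figure D3:**
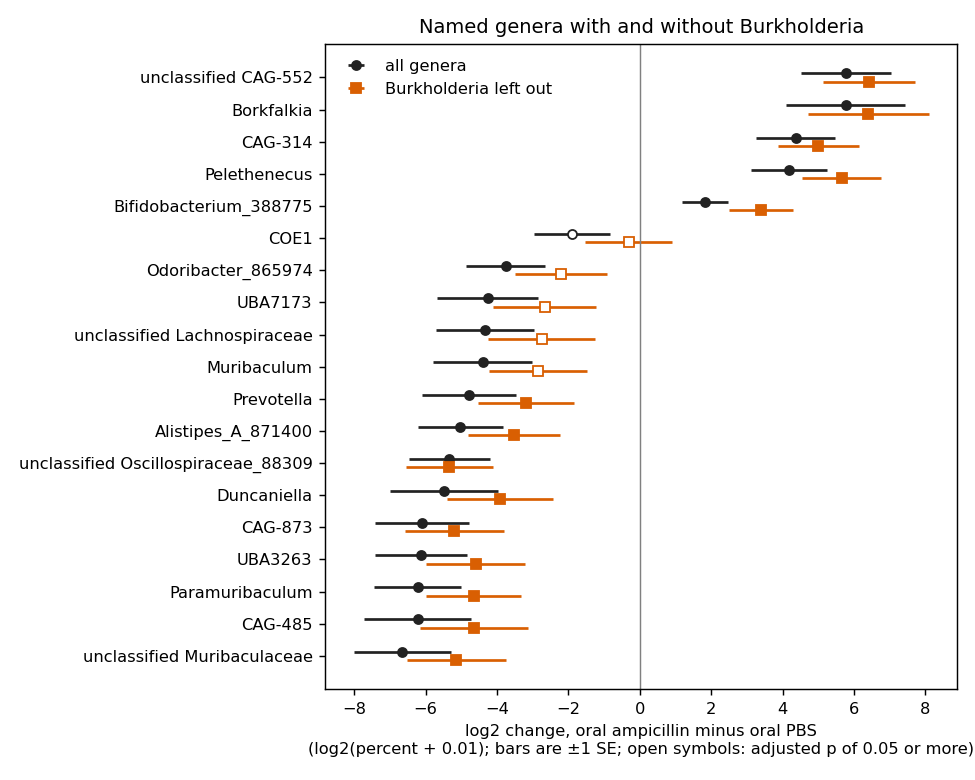
Log2 change of named genera, oral ampicillin minus oral PBS on the log2(percent + 0.01) scale, with all genera (black circles) and without Burkholderia (orange squares); bars are 1 SE and open symbols mark an adjusted p of 0.05 or more. The 5 rising genera move further up without Burkholderia, and Odoribacter_865974, UBA7173, unclassified Lachnospiraceae and Muribaculum lose their call.

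At family level 6 of 39 families were higher with ampicillin (15.4%) and 17 lower (43.6%), and 5 (13.2%) and 13 (34.2%) of 38 without Burkholderia. The higher ones were the families of the 6 genera above. Butyricicoccaceae and Anaerotignaceae were lower both ways but had no read in any ampicillin mouse, so rescaling could not change their ampicillin shares. Muribaculaceae (log2 -5.36 ± 1.30), Rikenellaceae (-5.24 ± 1.18) and Oscillospiraceae_88309 (-5.23 ± 1.36) had the largest falls. In these 3 every ampicillin mouse was below every PBS mouse. That also held for CAG-508, Bacteroidaceae, Marinifilaceae, Lachnospiraceae, Ruminococcaceae, UBA932, Acutalibacteraceae and Dehalobacteriaceae. Lachnospiraceae changed by -3.61 ± 1.40 (limma adjusted p = 0.0216), and by -2.003 without Burkholderia (adjusted p = 0.246).

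By phylum, Bacteroidota held 7.54%, 2.12%, 4.52%, 0.799% and 2.09% with ampicillin, against 92.2%, 92.9%, 94.9%, 72.2% and 74.7% with PBS. The exact two-sided permutation test gave p = 0.00794, the smallest that 5 against 5 mice allow (0.0127 adjusted over the 8 single values tested). Firmicutes_A, which holds the Clostridia and Borkfalkia, had 88.6%, 92.2%, 3.95%, 94.2% and 1.03% with ampicillin and 4.18% to 25.9% with PBS (exact p = 0.167). It lay above all PBS mice in replicates 1, 2 and 4 and below them in replicates 3 and 5. Without Burkholderia it was above all PBS mice in all 5, with 35.9% in replicate 3 and 29.9% in replicate 5 (exact p = 0.00794, adjusted 0.0127). In replicate 5 this was mostly Lachnospiraceae, with 29.1% of the 803 remaining reads, while Borkfalkia had no read. Firmicutes_D, which holds Pelethenecus, was at 2.92% ± 2.12 with ampicillin and 0.336% ± 0.190 with PBS (exact p = 0.0476, adjusted 0.0635), and was above all PBS mice without Burkholderia (exact p = 0.00794, adjusted 0.0127). Proteobacteria had 0.154%, 0.591%, 89.4%, 0.323% and 96.7% with ampicillin and 0.0760% to 0.427% with PBS (exact p = 0.0635, adjusted 0.0726). Proteobacteria passed the threshold without ampicillin replicate 1 (adjusted p = 0.0212) or replicate 4 (0.0317), and Firmicutes_D without replicate 5 (exact adjusted p = 0.0127).

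The Shannon index, which grows with the number of genera and with their evenness, was 0.813, 1.15, 0.670, 0.964 and 0.251 with ampicillin, against 2.44, 2.48, 2.33, 2.98 and 2.59 with PBS. The difference of means was -1.80 (exact permutation p = 0.00794, adjusted 0.0127), and no ampicillin mouse reached the PBS range. Without Burkholderia it was 2.94 in both replicate 3 and replicate 5, within the PBS range, and 0.813, 1.14 and 0.945 in the other 3 mice. The difference was then -0.81 and did not pass the test (exact p = 0.151, adjusted 0.172). It was also not past the threshold when counted by family (-0.45, exact p = 0.0556, adjusted 0.0833). With the 2 Burkholderia mice dropped as too shallow it was -1.60 (exact p = 0.0179, the smallest that 3 against 5 mice allow). The 2 dropped mice are the ones within the PBS range. With them kept and all libraries at an equal 600 reads without Burkholderia, the difference was -0.78 (exact p = 0.167).

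The most abundant genus held 76.6% ± 19.2 of reads with ampicillin and 23.4% ± 7.80 with PBS (SD, n = 5 each; exact permutation p = 0.00794, adjusted 0.0127). Without Burkholderia the top genus held 15.2% in replicate 3 and 22.5% in replicate 5, and the difference did not pass the test (exact p = 0.135, adjusted 0.172). The number of genera with reads was 48, 49, 33, 18 and 38 with ampicillin, against 93, 64, 83, 122 and 106 with PBS (exact p = 0.00794, adjusted 0.0127). Without Burkholderia the difference was -57.0 genera (exact p = 0.00794, adjusted 0.0127). The PBS libraries were deeper. At an equal 1000 reads the difference was -26.4 genera (exact p = 0.00794), and at 600 reads without Burkholderia it was -16.8 (exact p = 0.0556).

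**Figure D4:**
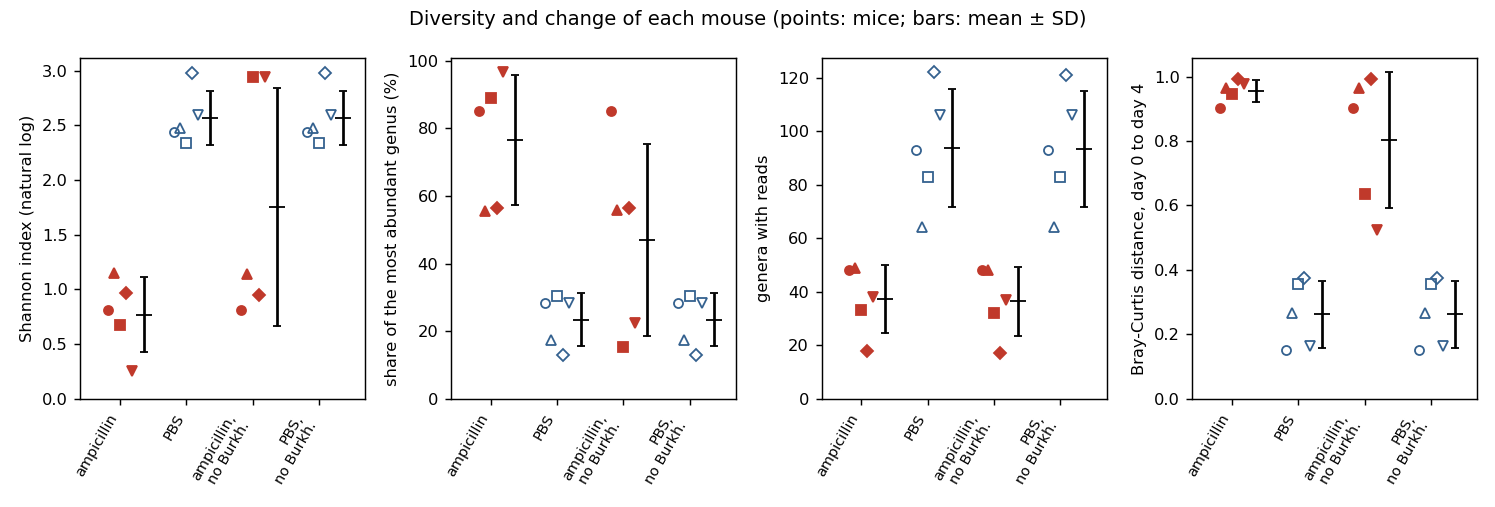
Shannon index, share of the most abundant genus (%), number of genera with reads and Bray-Curtis distance between day 0 and day 4, with 1 point per mouse and 1 shape per replicate, oral ampicillin left of oral PBS, first with all genera and then without Burkholderia; black bars are mean ± SD of 5 mice. Ampicillin and PBS mice do not overlap with all genera, while replicates 3 and 5 move to a Shannon index of 2.94 without Burkholderia.

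Each mouse was also set against its own stool of day 0. The Bray-Curtis distance between the days was 0.903, 0.963, 0.947, 0.991 and 0.978 in the ampicillin mice, against 0.153, 0.265, 0.356, 0.373 and 0.164 in the PBS mice (exact permutation p = 0.00794, adjusted 0.0127). Without Burkholderia it was 0.637 in replicate 3 and 0.523 in replicate 5, both still above every PBS mouse (exact p = 0.00794, adjusted 0.0127). The day 0 libraries of these mice were shallow in part, with 324 to 18757 reads for the ampicillin mice and 318 to 38648 for the PBS mice.

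Several of the genera that rose had reads before dosing. Borkfalkia held 0.586% and 0.363% at day 0 in the mice of replicates 1 and 2 and had no read in the other 3 ampicillin mice, and Pelethenecus held 0.411%, 0.165% and 0.0996% in replicates 1, 2 and 4. Unclassified CAG-552, later at 36.8% in replicate 4, had no read of 4018 in that mouse at day 0. Over all 107 day 0 libraries, Borkfalkia had reads in 68 and reached at most 1.06%, unclassified CAG-552 in 43 and at most 0.193%, and Burkholderia in 8 and at most 0.730%. At day 0, 0 of 85 genera (0%) were called in limma between mice later given ampicillin and mice later given PBS. At an unadjusted p of 0.05 there were 3 (3.53%). Among day 0 libraries of at least 1000 reads 0 of 91 were called, with 11 at an unadjusted p of 0.05 (12.1%). Prevotella, not called, held 9.68% and 5.41% at day 0 in the mice of replicates 1 and 2. It held 29.6% to 45.3% in the other 3 ampicillin mice and 30.7% to 43.0% in the PBS mice. The Shannon index at day 0 was 2.47 ± 0.657 in 6 mice of the ampicillin group and 2.29 ± 0.1802 in 6 of the PBS group (SD; exact permutation p = 0.494). Among libraries of at least 1000 reads it was 2.96 ± 0.598 in 3 mice of the ampicillin group and 2.37 ± 0.165 in 4 of the PBS group, a difference of 0.59 (exact permutation p = 0.171).

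Within run ok122 alone, with ampicillin replicates 1 to 3 against the 5 PBS mice, 6 of 96 genera were higher and 31 lower. Ampicillin replicates 4 and 5 had no oral PBS mouse in their run. In the 3 intravenous PBS libraries of that run Borkfalkia held 0.172% to 0.326%, unclassified CAG-552 at most 0.0351%, Pelethenecus at most 0.0859%, and Burkholderia had no read in libraries of 8556 to 38424 reads.

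Oral vancomycin, a glycopeptide that also acts on the cell wall, was given to 6 mice, whose libraries held 1151 to 20443 reads. Borkfalkia was abundant in both, at 39.8% ± 37.5 with ampicillin and 28.9% ± 14.5 with vancomycin, and the difference did not pass the test (log2 -2.16 ± 1.60, limma adjusted p = 0.752). Of 95 genera 5 were higher with ampicillin (5.26%) and 5 lower (5.26%). Escherichia_710834 had a mean of 0.126% ± 0.168 with ampicillin and 49.0% ± 15.2 with vancomycin (log2 -9.77 ± 1.56, adjusted p = 4.62e-07). Ligilactobacillus, a lactic acid bacterium, had 0.0127% ± 0.0246 and 5.61% ± 2.70 (log2 -8.29 ± 1.001, adjusted p = 1.44e-10), and Parasutterella 0.0429% ± 0.0587 and 9.13% ± 8.57 (log2 -7.33 ± 1.17). The ampicillin mice were below all vancomycin mice in these 3 genera. Pelethenecus had 2.87% ± 2.12 with ampicillin and 0.0384% ± 0.0358 with vancomycin (log2 5.17 ± 1.02, adjusted p = 4.78e-05). Burkholderia, CAG-314, Bifidobacterium_388775 and COE1 were also higher with ampicillin, and Desulfovibrio_R_446353 and Mucispirillum lower. Without Burkholderia 9 of 94 genera were higher (9.57%) and 5 lower (5.32%), and Prevotella (log2 4.54, adjusted p = 0.00603) and UBA7173 (4.73, adjusted p = 0.00696) were then among the higher ones.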

How the data were processed

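The deposited table is a signal: the authors scaled each library to 100000 over 488 taxa at 7 ranks, per the file headers and values. How reads were filtered, clustered and named is not given in the sources used here. Group, day and replicate came from the deposited sample sheets, and mice were paired between days by sample name. Empty cells (11.6%) were read as 0. Reads per library were recovered from the step between values, and 100% of nonzero values came out whole within 0.02 reads or 1e-05 of the value. No count model was fitted.

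Taxa were summed to 316 genera. Limma 3.58.1 (R 4.3.3; lmFit, eBayes with trend) was fitted on log2(percent + 0.01) over 89 day 4 samples of all groups, after 2 pairs of near-identical libraries of other groups were averaged. Genera present in at least 20% of samples were tested, with Benjamini-Hochberg adjustment and a threshold of 0.05. The scale understates changes of rare genera. Single values per mouse were tested by exact permutation of means over mice (Python 3.11.15), adjusted over 8 values. Both tests were run on simulated normal values with equal spread in all groups and no floor at 0. The shares here have unequal spread and many zeros, so this checked the code and not its fit to such data. Burkholderia was left out by removing its reads and scaling again. Labels do not say whether mice shared cages, so p-values measure the spread between these samples. Named genera were the 5 most abundant of each ampicillin mouse with and without Burkholderia, the 10 most abundant of PBS, all genera that rose and the 8 largest falls. The samples and lists were chosen with earlier results of these data known.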

Additional observations from a re-analysis of the deposited data

Results flagged for a closer look

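Among 56 sets of 5 values (8 single values and 20 named genera in each group), 7 had a mouse far from the other 4. The measure was the gap to its nearest neighbour over the range, above 0.71. That cutoff flags about 1 set in 20 of normally spread values, which genera at 0 in most mice are not. A genus with reads in 1 mouse only always has a gap of 1, so the count of 7 cannot be set against that rate. With ampicillin, Pelethenecus was low in replicate 5 (0.0171%, 4 reads), COE1 was at 0% in replicate 4, and unclassified Oscillospiraceae_88309 had reads in replicate 2 only (0.0420%). With PBS, Burkholderia (0.00775%) and CAG-314 (0.0357%) had reads in replicate 4 only, Borkfalkia was at 0% in replicate 2, and CAG-485 was low in replicate 5 (6.55%). Genera were compared as log2(percent + 0.01).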

How the results depend on the processing

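Of 490 repeats over 20 named genera, 451 kept their direction and side of the threshold, 36 lost the call in 11 genera, and 1 gained it (COE1 at 1000 reads). COE1, not called, changed sign without Burkholderia at 600 reads (0.73) and on the centred log ratio scale (1.18). The count of called genera, 53 of 95, was 32 of 59 at 1000 reads and 26 on the centred scale. Without Burkholderia it was 41 of 94, and 21 of 53 at 600 reads, 16 on the centred scale and 24 for changes within mice. Leaving out 1 mouse in turn gave 46 to 56 calls, 32 to 45 without Burkholderia, and 8 to 12 against vancomycin. The Shannon difference was -0.81 without Burkholderia or without the reagent list, -0.78 at 600 reads and -0.45 by family, and -1.89 to -1.67 leaving out 1 mouse. The difference in the top share was 23.6 points without Burkholderia, 23.0 at 600 reads and 16.0 by family, and 48.2 to 58.4 leaving out 1 mouse. The difference in genera with reads was -16.8 at 600 reads without Burkholderia, and -63.8 to -49.3 leaving out 1 mouse. Firmicutes_A differed by 54.8 points without Burkholderia and Firmicutes_D by 5.10, both then past the threshold, as was Firmicutes_D in run ok122 (2.97). Leaving out 1 mouse gave 33.0 to 56.3 for Firmicutes_A, 2.10 to 3.31 for Firmicutes_D, 22.4 to 46.6 for Proteobacteria, -85.3 to -79.6 for Bacteroidota and 0.667 to 0.722 for the distance between days. Fewer genera were tested at 600 and 1000 reads, and for the other changes the cause was not tested. No paired analysis was possible because the labels match no ampicillin mouse with a PBS mouse. Each mouse was paired only with its own day 0 stool, and changes within mice gave 40 calls of 95. Depth limits the Burkholderia mice most, with 685 and 803 other reads.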
